A study of Mus musculus with 11 samples.

Results

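RNA-seq counts of thymocytes (T cells in development) were compared between 4 Zmat3-/- and 4 wild-type (wt) mice, which are 8 of the 11 mice of the series; the other 3 (TKO) also lack Puma and p21. The mice were chosen by the genotype in their labels, were 8 to 12 weeks old and were kept on a C57BL/6-WEHI background. The thymocytes received no treatment before RNA extraction: each whole thymus was mashed through a filter, and RNA was taken from unsorted cells. Zmat3-/- mice lack Zmat3 in the germline and so in every cell, the non-lymphoid cells of the thymus included, and the wt mice carry no engineered allele. Total counts ran from 22375732 to 43253895 per mouse. Levels are CPM, counts scaled to a common library size with TMM factors, and log2FC is the log2 ratio of Zmat3-/- to wt from edgeR. A gene "passed" when its Benjamini-Hochberg adjusted p from edgeR's quasi-likelihood test was under 0.05 over all 13494 genes tested.

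ZMAT3 is a zinc finger protein that binds RNA, is induced by TRP53 and is known for binding AU-rich stretches of mRNAs and for acting on alternative splicing and mRNA stability. Many thymocytes respond to T cell receptor and other surface signals by briefly inducing early-response genes. These encode transcription factors of the AP-1, EGR, KLF and NR4A families together with the phosphatases, kinase inhibitors and mRNA decay factors that shut the same signals off. Their mRNAs are typically short-lived, many hold AU-rich elements in their 3' untranslated region (UTR), and many of their promoters hold cAMP response elements (CREs), the sites that CREB family factors bind.

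The wt mice did not form a uniform group, which touches each result below. Over tested genes the log2 CPM of wt mice 1 and 2 correlated with each other at 0.983 and with those of wt mice 3 and 4 at 0.897 to 0.927, while any 2 Zmat3-/- mice correlated at 0.986 to 0.991. Of 11927 protein-coding genes, 2015 differed by over 2-fold between wt mice 1 and 2 and wt mice 3 and 4, against 33 between the same numbers of Zmat3-/- mice. The difference went with transcript length: among the shortest quartile of coding genes by exon length the median log2FC was −0.48 in mice 1 and 2 and 0.14 in mice 3 and 4, and among the longest quartile it was 0.48 and −0.062. Xist was at 500 to 1351 CPM in mice 1 and 2 of both genotypes and at 0.964 to 2.6 CPM in mice 3 and 4; the labels give no sex. The genotype difference itself differed between mice 1 and 2 and mice 3 and 4 in 5965 genes (44.2% of those tested, adjusted p from edgeR's interaction term). Where that difference passed for a gene whose log2FC is given below, the log2FC is therefore also given by pair, first for mice 1 and 2 and then for mice 3 and 4. What sets the wt mice apart was not tested. All 12 thymocyte markers examined (Cd3d, Cd3e, Cd3g, Cd4, Cd8a, Cd8b1, Ptcra, Rag1, Rag2, Dntt, Thy1 and Lck) were counted in each of the 8 mice, at 20.9 to 5345 CPM. None of them passed. Cd3e (445 to 556 CPM in wt and 325 to 363 CPM in Zmat3-/- mice), Cd8a (1839 to 2055 and 1506 to 1722), Rag2 (186 to 231 and 140 to 185) and Thy1 (1426 to 2170 and 1301 to 1378) were lower in each Zmat3-/- mouse than in any wt mouse. This held in 6.81% of all tested genes, and the ranges of the other markers overlapped.

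**Figure D1:**
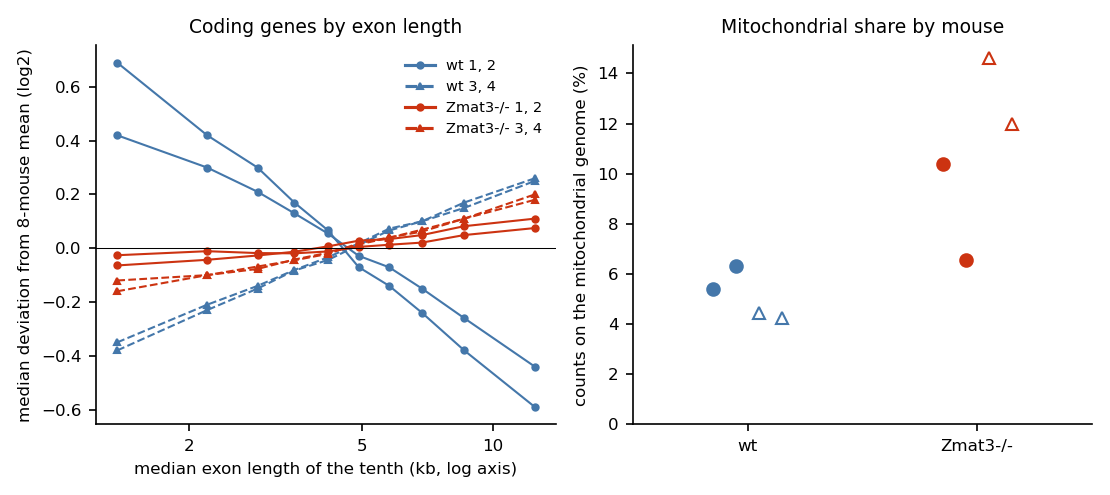
Left, for protein-coding genes in 10 equal bins of exon length (kb, log axis), the median log2 deviation of each mouse from the mean of the 8 mice; right, the share of all counts on the mitochondrial genome (%) in each mouse. Lines of wt mice 1 and 2 fall with length while those of the other 6 mice rise, and the mitochondrial share is 4.25% to 6.31% in wt and 6.54% to 14.6% in Zmat3-/- mice.

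Zmat3 was at 9.79, 12, 27.1 and 27.4 CPM in wt mice 1 to 4 and at 5.72, 5.33, 6.48 and 6.91 CPM in Zmat3-/- mice 1 to 4. The gene (ENSMUSG00000027663.12, chromosome 3 from 32334792 to 32366014, minus strand, GRCm38) was thus lower in each Zmat3-/- mouse than in any wt mouse but still counted. Its log2FC was −1.64 (SE 0.35, adjusted p = 0.0786 from edgeR, 0.178 with the replicate number as a block), and it was −0.98 in mice 1 and 2 and −2.04 in mice 3 and 4. In a 2-sided exact permutation test of log2 CPM the difference had p = 0.0286, the smallest that 4 against 4 mice allow. Of the 8 fits that left out a single mouse, the one without wt mouse 1 passed (−1.86, adjusted p = 0.0373) and the other 7 had adjusted p of 0.0815 to 0.265. Of the other ZMAT family genes, which also encode zinc finger proteins, Zmat1, Zmat2 and Zmat5 had log2FCs of −0.13, −0.24 (−0.64 and 0.32 by pair) and −0.59 (−1.14 and 0.30 by pair) and none passed, while Zmat4 stayed under 0.1 CPM in the 8 mice. No gene passed among the 44 tested within 5 Mb of Zmat3, where the median log2FC was −0.018.

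Of these 13494 genes, 103 passed (0.763%): 54 were higher (0.400%) and 49 lower (0.363%) in Zmat3-/- thymocytes. The higher and the lower genes differed in kind: 46 of the 54 higher genes but 23 of the 49 lower genes were protein-coding. The median log2FC was 1.51 among the higher genes, from 0.51 to 5.00, and −1.01 among the lower genes. In each of the 103 genes the CPM ranges of the 2 genotypes did not overlap, as in 14.0% of all tested genes. The log2FC was therefore bound to have the same sign in both pairs of mice. Its size differed between the pairs in 10 of the higher and 6 of the lower genes (edgeR's interaction term). Under the block, 12 genes kept an adjusted p under 0.05 (0.0889%), each of them higher: Sik1, Trib1, Klf4, Fosb, Tob2, Tnfaip3, Dnajb9, Dusp5, Gm48369, Tob1, Cited2 and Hist1h2bg. The adjusted p of the 49 lower genes was 0.0567 to 0.201 with the block. The block fits more terms to the same 8 mice, which leaves less to measure the spread. A gene could thus lose the call at an unchanged log2FC, such as Pigc (−0.54 in both fits, adjusted p = 0.0293 from edgeR, 0.18 with the block). With the Xist level as a covariate instead, 97 higher and 105 lower genes passed. Beside the adjusted p, 43 genes (0.319%) also exceeded an absolute log2FC of 1.5, 27 of them higher (0.200%) and 16 lower (0.119%). The number of genes that passed depended on single mice, from 17 without Zmat3-/- mouse 1 to 105 without wt mouse 1, and the split moved too, to 14 to 18 higher and 3 or 4 lower genes without any 1 of the Zmat3-/- mice and 96 higher and 139 lower with the 3 genotypes in one fit. It depended more widely on the model, with 1085 in DESeq2 and 5102 with 1 surrogate variable.

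**Figure D2:**
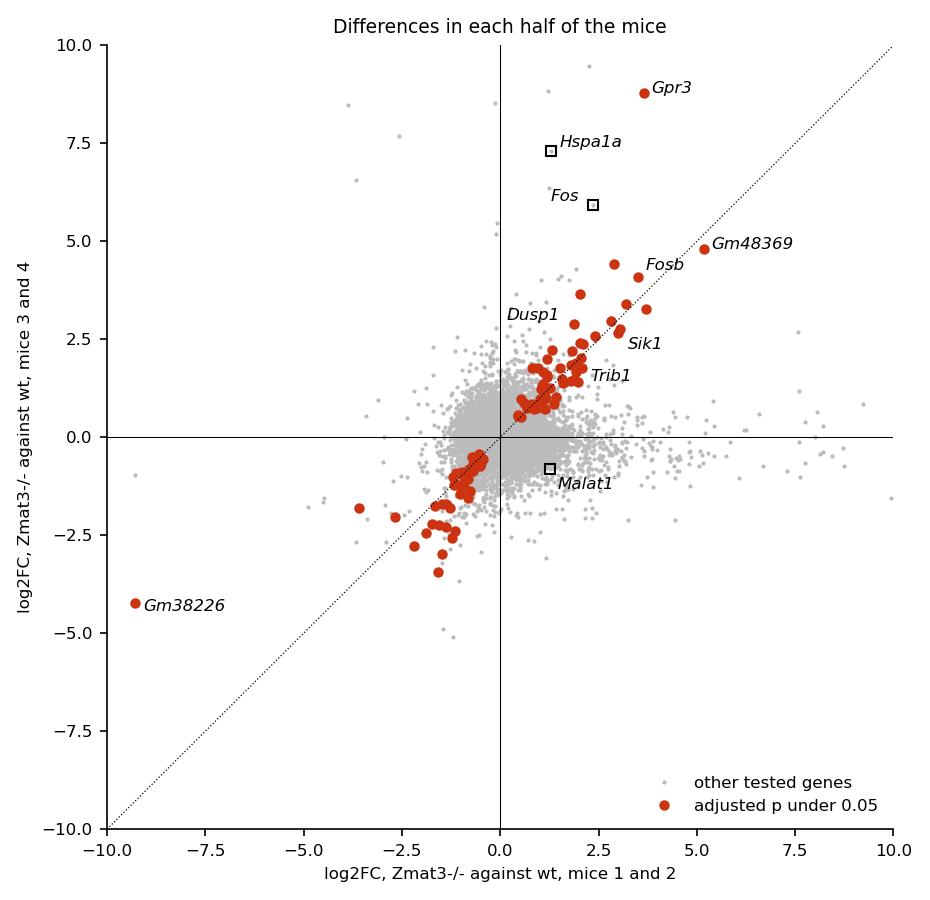
Log2FC of Zmat3-/- against wt thymocytes in mice 1 and 2 (x axis) and in mice 3 and 4 (y axis) for the tested genes; filled points passed in all 8 mice, squares mark named genes that did not pass, the dotted line marks equal values, and 6 genes lie beyond the axes. The genes that passed lie in the upper right and lower left, Sik1 (3.04 and 2.76) and Trib1 (2.05 and 2.03) near the dotted line and Plk2 (2.03 and 3.66) and Mir142hg (−1.22 and −2.56) away from it; many other genes lie along either axis.

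Of the 46 protein-coding genes that rose, 17 were early-response genes. Over 10 lists of these (124 genes, 117 tested) 17 members passed as higher and 0 as lower, or 14.5% of those tested against 0.400% of all genes; leaving out Zmat3-/- mouse 1, 2 or 4 gave 9, leaving out Zmat3-/- mouse 3 or wt mouse 4 gave 11, and DESeq2 gave 31 higher and 5 lower, beside 517 higher and 568 lower of all genes. The lists were written with earlier results of these data known. In 37 of the 117 members (31.6%) each Zmat3-/- mouse was above each wt mouse, as in 7.18% of all tested genes, and in 5 (4.27%) each was below, as in 6.81%. Summed over the lists, the level was 7818 to 8659 CPM in wt and 10755 to 11289 CPM in Zmat3-/- mice. The 17 genes had log2FCs of 1.12 to 4.37, and at least 0.97 in mice 1 and 2 and 0.86 in mice 3 and 4. With the block, 8 of the 17 passed. The median log2FC over all 117 was 0.27, against −0.026 for all tested genes.

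Promoters and 3' UTRs are shown here for genes that rose and hold the letters searched for; of those shown, Fosb and Tob2 also passed with the block. The RefSeq promoter table (GRCm38.p6) holds 36 windows for 29 of the 46 protein-coding genes that rose, and in each the 250 bases before the transcription start were searched on both strands. The full CRE (TGACGTCA) was in 2 of the 36 windows, those of Dusp1 and Plk2 (5.56%), in 1 of the 20 windows of genes that fell (5%) and in 2.53% of 12060 windows of tested coding genes. The shorter CRE letters (TGACG or CGTCA, which the full CRE contains) were in 21 windows (58.3%), against 26.4% of all windows of tested coding genes and 10% of the 20 windows of genes that fell. The CArG box, bound by serum response factor, was in 1 of the 36 windows, that of Dusp5 (2.78%), in 0 of the 20 and in 1.1% of the 12060. The table holds no window for Sik1, Trib1, Zfp36l2 and Arc. A match of letters is not a bound site. In the 5 windows that follow, full and short CRE letters are in capitals. Dusp1 lies on chr17:26508473-26508722 (minus strand), Plk2 on chr13:110394794-110395043 (plus), Nr4a1 on chr15:101266596-101266845 (plus), Nr4a2 on chr2:57124004-57124253 (minus) and Fosb on chr7:19310046-19310295 (minus).
Dusp1: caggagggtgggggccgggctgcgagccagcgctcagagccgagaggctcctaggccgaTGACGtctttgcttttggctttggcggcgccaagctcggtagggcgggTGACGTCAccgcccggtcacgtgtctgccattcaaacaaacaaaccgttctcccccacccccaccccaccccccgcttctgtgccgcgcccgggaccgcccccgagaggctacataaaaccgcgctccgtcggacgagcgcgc
Plk2: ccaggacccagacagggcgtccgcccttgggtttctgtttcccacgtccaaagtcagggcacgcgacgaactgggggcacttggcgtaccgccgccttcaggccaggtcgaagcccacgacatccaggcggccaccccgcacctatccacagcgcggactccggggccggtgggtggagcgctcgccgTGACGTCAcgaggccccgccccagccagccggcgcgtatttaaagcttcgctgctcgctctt
Nr4a1: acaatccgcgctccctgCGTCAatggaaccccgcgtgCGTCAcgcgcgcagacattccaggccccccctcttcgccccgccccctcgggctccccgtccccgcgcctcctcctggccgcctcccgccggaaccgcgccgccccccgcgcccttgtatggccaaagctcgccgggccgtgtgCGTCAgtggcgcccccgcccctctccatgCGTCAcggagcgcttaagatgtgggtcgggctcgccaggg
Nr4a2: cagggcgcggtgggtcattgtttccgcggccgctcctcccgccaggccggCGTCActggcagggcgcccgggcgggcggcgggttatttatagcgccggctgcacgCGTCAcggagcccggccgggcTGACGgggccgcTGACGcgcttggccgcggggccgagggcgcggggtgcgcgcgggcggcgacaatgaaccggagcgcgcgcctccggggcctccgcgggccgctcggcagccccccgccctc
Fosb: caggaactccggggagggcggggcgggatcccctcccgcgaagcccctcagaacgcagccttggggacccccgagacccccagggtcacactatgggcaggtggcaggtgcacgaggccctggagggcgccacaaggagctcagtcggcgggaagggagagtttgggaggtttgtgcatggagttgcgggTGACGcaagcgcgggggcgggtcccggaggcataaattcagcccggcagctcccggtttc
The AU-rich heptamer TATTTAT was looked for in the 3' UTRs of GENCODE M21 transcripts (GRCm38), 1 transcript a gene. It was in 21 of the 46 coding genes that rose (45.7%), in 8 of the 23 that fell (34.8%) and in 27.2% of 11878 tested coding genes. Among 3' UTRs of 500 to 2500 bases the shares were 48.4% of 31, 35.7% of 14 and 28.3% of 6041. In the sites below the heptamer is in capitals. They lie on chr7:19303326-19303354 (minus, Fosb), chr15:81849860-81849888 (minus, Tob2), chr17:26506159-26506187 (minus strand, Dusp1), chr17:84184914-84184942 (minus, Zfp36l2), chr2:57107545-57107573 (minus, Nr4a2) and chr13:5868490-5868518 (plus, Klf6).
Fosb: ccacccccagcTATTTATccctttcctgg
Tob2: tatcacctgctTATTTATgtacgaggttg
Dusp1: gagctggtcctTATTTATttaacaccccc
Zfp36l2: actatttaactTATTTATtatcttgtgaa
Nr4a2: tattttgtgccTATTTATgaataaatatt
Klf6: gctacgtctctTATTTATgccttgaggac
Zfp36l2 and Dusp1 held 3 such heptamers each, and Trib1, Sik1 and Klf4 held none in the transcript used.

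A kinase and a receptor of cAMP signalling were among the largest rises. Sik1, a salt-inducible kinase that CREB induces and that restrains CREB coactivators, was at 13.1, 16.5, 16.7 and 19.6 CPM in wt mice 1 to 4 and at 116, 128, 111 and 138 CPM in Zmat3-/- mice 1 to 4. The lowest Zmat3-/- mouse was far above the highest wt mouse, and the ratio was 7.47 (log2FC 2.90, SE 0.143, adjusted p = 0.00011 from edgeR, 0.00458 with the block). Gpr3, a receptor that raises cAMP without a ligand, was at 0.241, 0.147, 0 and 0 CPM in wt and at 2.14, 2.73, 1.97 and 2.35 CPM in Zmat3-/- mice. Its counts in wt mice were near 0, and its log2FC of 4.37 (SE 0.709, adjusted p = 0.0354 from edgeR, 0.178 with the block) rests on them. No log2FC is given by pair, since wt mice 3 and 4 were both at 0. These were 2 of 16 tested cAMP and CREB genes (12.5%, while 0.400% of all tested genes passed as higher), and the other 14 did not pass.

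Among transcription factors the rises were large in Fosb and Klf4. Fosb, an AP-1 subunit, was at 3.22, 4.35, 2.1 and 2.01 CPM in wt and at 43.8, 42.2, 23.4 and 46.9 CPM in Zmat3-/- mice 1 to 4, with no overlap and with Zmat3-/- mouse 3 below the other 3. Its log2FC was 3.73 (SE 0.326, adjusted p = 0.00226 from edgeR, 0.0133 with the block). Klf4, a Krüppel-like factor that restrains T cell proliferation, was at 2.05, 2.17, 1.26 and 2.01 CPM in wt and at 14, 15.9, 11.6 and 14.5 CPM in Zmat3-/- mice (log2FC 2.89, SE 0.205, adjusted p = 0.000752 from edgeR, 0.0108 with the block). Klf6, of the same family, rose from 52.7 to 64.8 CPM in wt to 103 to 141 CPM (log2FC 1.12, by pair 1.38 and 0.86, adjusted p = 0.0114, 0.11 with the block). Of the 11 tested KLF genes these 2 passed (18.2%, while 0.400% of all tested genes passed as higher). The log2FCs of all 11 were above 0, as 46.8% of all tested genes were, with a median of 0.34 (0.78 in mice 1 and 2 and 0.18 in mice 3 and 4). The orphan nuclear receptor Nr4a2 was at 2.68, 2.66, 2.86 and 2.2 CPM in wt and at 11.4, 11.8, 10.7 and 16.1 CPM in Zmat3-/- mice (log2FC 2.26, SE 0.179, adjusted p = 0.00139, 0.0511 with the block). Nr4a1, which T cell receptor signals induce, was already at 77.8 to 110 CPM in wt and reached 169 to 222 CPM (log2FC 1.13, adjusted p = 0.0191, 0.0511 with the block). Arc, an immediate-early gene best known in neurons, rose with a log2FC of 1.34 (0.97 and 1.77 by pair, adjusted p = 0.0211, 0.135 with the block). The early-response genes did not all go this way. Egr1 and Egr2, zinc finger factors induced by T cell receptor signals, had log2FCs of −0.34 (adjusted p = 0.15) and −0.58 (adjusted p = 0.0856).

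Fos, Jun and Junb, the classical AP-1 subunits, did not pass, although each Zmat3-/- mouse was above each wt mouse. Fos was at 33, 39.6, 2.82 and 3.07 CPM in wt and at 186, 190, 142 and 221 CPM in Zmat3-/- mice 1 to 4. Its wt values fell apart into mice 1 and 2 and mice 3 and 4, and its log2FC of 3.23 (adjusted p = 0.121) was 2.37 in the first pair of numbers and 5.93 in the other. Jun had a log2FC of 2.53 (1.93 and 4.30 by pair, adjusted p = 0.131) and Junb one of 2.31 (1.55 and 4.12 by pair, adjusted p = 0.132), with wt values of 31, 37.2, 5.01 and 4.68 CPM for Jun. Ppp1r15a, a phosphatase subunit of the integrated stress response, was at 75.5, 67.8, 16.4 and 14.5 CPM in wt and 223 to 280 CPM in Zmat3-/- mice (log2FC 2.50, by pair 1.75 and 4.01, adjusted p = 0.0858). These 4 genes were given after their values were seen. Rgs2, which shortens G protein signalling, had a log2FC of 1.39 (0.80 and 2.16 by pair, adjusted p = 0.0727), and none of the 8 RGS genes passed.

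**Figure D3:**
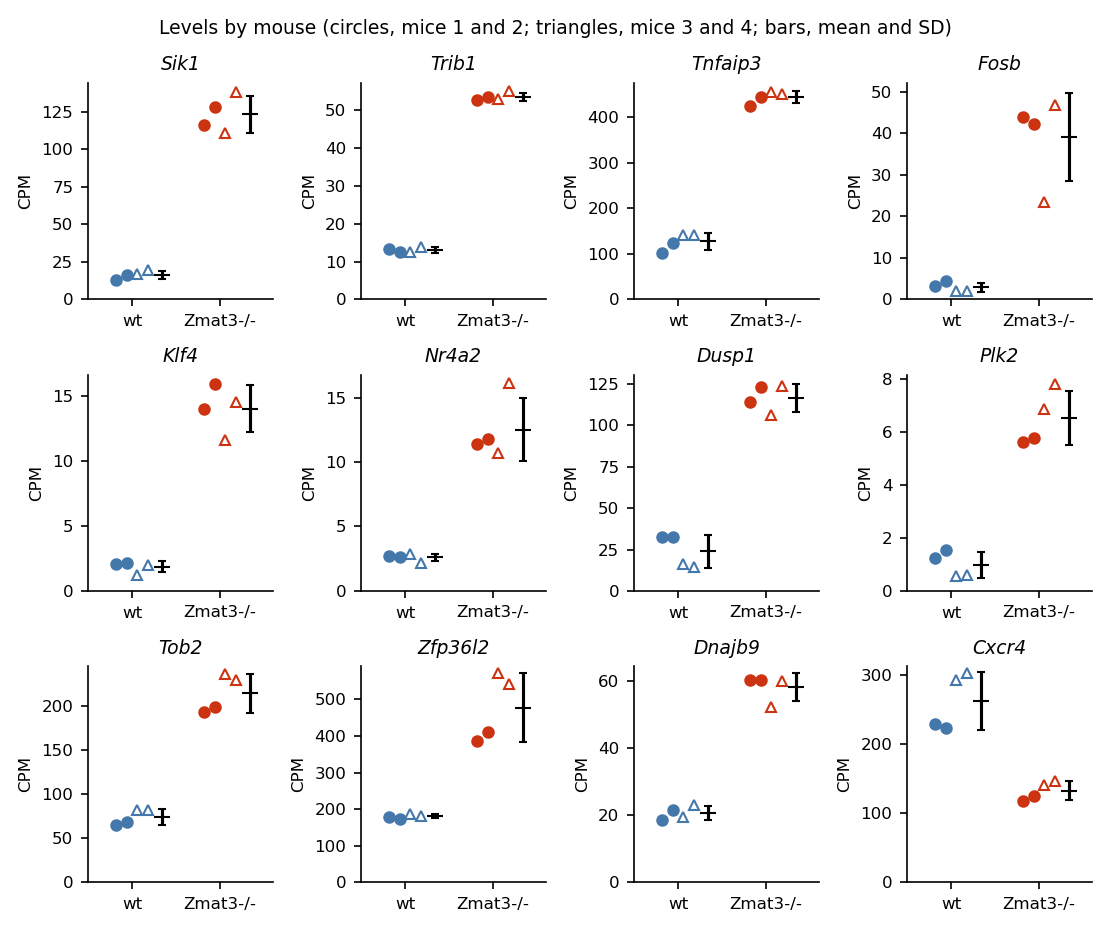
CPM (y axes, from 0) of 12 genes in each wt and Zmat3-/- mouse, with the mean and SD (n = 4) beside the points. In the first 11 genes each Zmat3-/- mouse lies above each wt mouse, in Cxcr4 below, and in Dusp1 and Plk2 the wt mice fall into mice 1 and 2 (circles) and mice 3 and 4 (triangles).

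Among brakes on MAPK and NF-kB signalling, Dusp1, Dusp5, Spry1 and Tnfaip3 rose. Dusp1, a nuclear phosphatase of MAP kinases, was at 32.3, 32.7, 16 and 14.6 CPM in wt and at 114, 123, 106 and 124 CPM in Zmat3-/- mice (log2FC 2.28, by pair 1.87 and 2.90, SE 0.285, adjusted p = 0.0148, 0.0613 with the block). Dusp5, a phosphatase of nuclear ERK, rose from 35.3 to 49.9 CPM to 77.5 to 107 CPM (log2FC 1.12, adjusted p = 0.023, 0.032 with the block). Spry1, an inhibitor of receptor tyrosine kinase signalling to ERK, went from 2.4 to 4.19 CPM in wt to 9.7 to 15.2 CPM (log2FC 1.78, by pair 1.31 and 2.23, adjusted p = 0.0153, 0.135 with the block). These were 3 of 13 tested MAPK feedback genes (23.1%, while 0.400% of all tested genes passed as higher), and others did not pass, such as Dusp10 at −0.084 (−0.23 and 0.071 by pair, adjusted p = 0.727) and Spry2 at −0.17 (adjusted p = 0.693). Tnfaip3 encodes A20, an ubiquitin-editing enzyme that ends NF-kB signalling. It was at 103, 123, 142 and 141 CPM in wt and at 425, 445, 455 and 452 CPM in Zmat3-/- mice, with the 4 Zmat3-/- values close together. The log2FC was 1.80 (SE 0.126, adjusted p = 0.000752, 0.0157 with the block). Tnfaip3 was 1 of 13 tested NF-kB genes (7.69%, while 0.400% of all tested genes passed as higher). No other of the 13 passed, the inhibitor Nfkbia being at −0.05 (−0.36 and 0.32 by pair, adjusted p = 0.898).

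The smallest adjusted p of all tested genes belonged to Trib1, a Tribbles pseudokinase that brings C/EBP factors to degradation. It was at 13.3, 12.4, 12.4 and 13.9 CPM in wt and at 52.6, 53.4, 53 and 55 CPM in Zmat3-/- mice. The values within each genotype lay close together, and the ratio was 4.12 (log2FC 2.04, SE 0.0863, adjusted p = 5.93e-05 from edgeR, 0.00723 with the block). In the TKO mice, which also lack Zmat3 and are set against the same wt mice, Trib1 was at 50, 61.6 and 62.2 CPM and Sik1 at 149, 138 and 139 CPM.

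Of 13 tested genes of mRNA decay and the TOB/BTG family, Tob1, Tob2 and Zfp36l2 rose (23.1%, while 0.400% of all tested genes passed as higher). Tob2 and Tob1, which bring the CCR4-NOT deadenylase to mRNAs and restrain proliferation, went from 65.1 to 82.4 and 18.6 to 22 CPM in wt to 193 to 237 and 45 to 48.7 CPM in Zmat3-/- mice. Their log2FCs were 1.53 (SE 0.126, adjusted p = 0.00162, 0.0133 with the block) and 1.18 (SE 0.0909, adjusted p = 0.00124, 0.0494 with the block). Zfp36l2, which binds AU-rich elements and speeds decay of the mRNA, was at 174 to 188 CPM in wt and at 386, 410, 571 and 543 CPM in Zmat3-/- mice 1 to 4 (log2FC 1.40, SE 0.15, adjusted p = 0.00691, 0.056 with the block). Its log2FC was smaller in mice 1 and 2 (1.18) than in mice 3 and 4 (1.58). Btg2, an antiproliferative gene of the TOB family, lay lower in each Zmat3-/- mouse, with a log2FC of −0.45 that did not pass (adjusted p = 0.0796). Zfp36 (log2FC 0.53, by pair 0.26 and 0.93, adjusted p = 0.358), Zfp36l1 (0.39, by pair 0.61 and 0.18, adjusted p = 0.241) and the other members of the list did not pass.

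Plk2, a polo-like kinase, passed as higher, as 1 of 37 tested TRP53 target genes (2.7%, against 0.400% of all genes). It was at 1.23, 1.54, 0.547 and 0.59 CPM in wt and at 5.6, 5.78, 6.84 and 7.79 CPM in Zmat3-/- mice (log2FC 2.70, by pair 2.03 and 3.66, SE 0.356, adjusted p = 0.0191, 0.135 with the block). The median log2FC of the TRP53 targets was −0.12. That list does not hold Dusp1, Dusp5, Spry1 and Zfp36l2, which passed and are counted in other lists above; the study also names them as TRP53 targets, from its comparison of TKO mice with the same wt mice, so that the choice is not independent of the wt values used here. None of the 11 tested regulators of TRP53 passed, and Trp53 itself had a log2FC of −0.23 (adjusted p = 0.344).

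**Figure D4:**
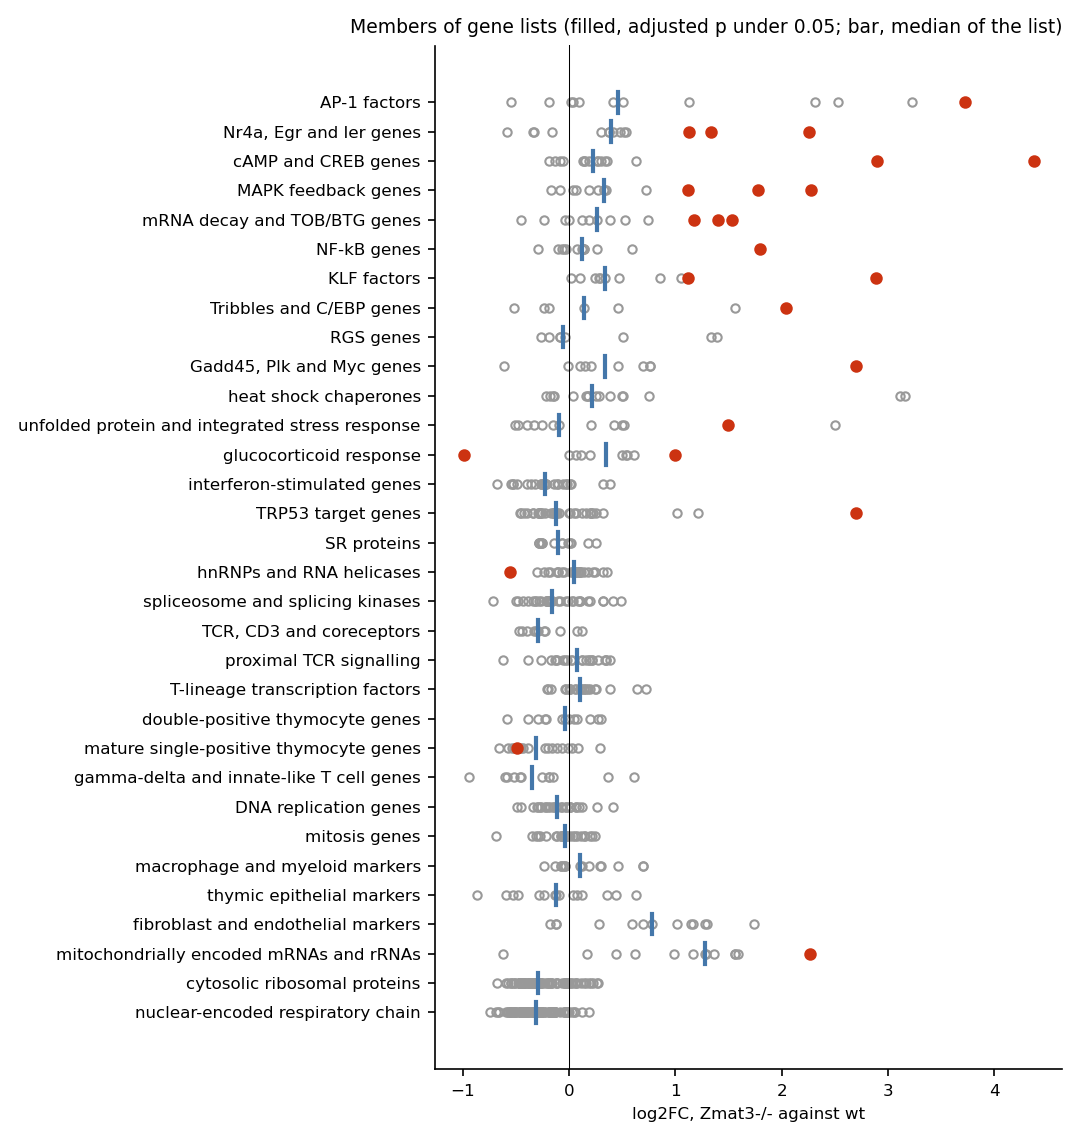
Log2FC (x axis) of each tested member of 32 gene lists (rows); filled points passed, open points did not, and a bar marks the list's median. Filled points lie to the right in 9 of the 10 early-response lists at the top, while the lists of T cell receptor, double-positive, replication and mitosis genes hold open points alone, between −0.69 and 0.41.

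Dnajb9, a co-chaperone of the endoplasmic reticulum that the unfolded protein response induces, was at 18.6 to 23.2 CPM in wt and at 60.4, 60.5, 52.2 and 60.1 CPM in Zmat3-/- mice (log2FC 1.5, SE 0.106, adjusted p = 0.000752, 0.019 with the block). It was 1 of 13 tested genes of the unfolded protein and integrated stress responses (7.69%, while 0.400% of all tested genes passed as higher). Hspa5, the main chaperone of the endoplasmic reticulum, was at 157 to 201 CPM in wt and 247 to 262 CPM in Zmat3-/- mice (log2FC 0.52, adjusted p = 0.0682), while 7 of the 13 genes had a log2FC below 0, Ddit3 being at −0.51 (−0.81 and −0.14 by pair) and Sdf2l1 at −0.48 (−0.79 and −0.0083 by pair), and the median was −0.091. None of 16 heat shock chaperones passed. Of 10 glucocorticoid response genes 1 passed as higher and 1 as lower (10% each): Sgk1, a kinase named for its induction by serum and glucocorticoids, rose to 2.01 times its wt level (log2FC 1.00, adjusted p = 0.00505, 0.056 with the block), and Cxcr4 fell. Cited2, a binding partner of CBP and p300 that was in no list and was chosen after its values were seen, rose from 29.2 to 35.9 CPM to 64 to 70.1 CPM (log2FC 1.08, adjusted p = 0.00226, 0.0494 with the block).

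Cxcr4, the receptor that holds immature thymocytes near CXCL12, was at 229, 223, 292 and 303 CPM in wt and at 117, 125, 141 and 146 CPM in Zmat3-/- mice. It thus stood at about 0.504 of its wt level (log2FC −0.99, SE 0.141, adjusted p = 0.0248, 0.0613 with the block). Ms4a4b, a membrane protein of mature T cells, fell from 83.7 to 90.5 CPM to 57.7 to 64.6 CPM (log2FC −0.49, adjusted p = 0.0344, 0.192 with the block) and was 1 of 18 mature single-positive genes that passed (5.56%), as Cxcr4 was 1 of 12 migration genes (8.33%), while 0.363% of all tested genes passed as lower. Of those 18 genes 15 had a log2FC below 0, with a median of −0.31 (−0.41 in mice 1 and 2 and −0.10 in mice 3 and 4). None of the 13 double-negative, 13 double-positive, 24 proximal T cell receptor signalling, 23 T-lineage transcription factor, 28 DNA replication or 25 mitosis genes passed, and their medians lay between −0.11 and 0.10. Of 11 T cell receptor, CD3 and coreceptor genes none passed and 9 were below 0, with a median of −0.29 (−0.58 and 0.11 by pair). Among 17 genes of MHC class I presentation none passed and 15 were below 0, with a median of −0.34 (−0.55 and −0.057 by pair). The T cell receptor beta variable segments all had a log2FC above 0 (20 of 20, 0.091 to 0.33), with none that passed, and summed to 616 to 727 CPM in wt and 706 to 828 CPM in Zmat3-/- mice. Of 65 alpha and delta variable segments Trav14d-3-dv8 passed (1.54%, while 0.400% of all tested genes passed as higher; log2FC 2.01, adjusted p = 0.0138, 0.137 with the block), and its near-identical copies could share its reads. The 12 gamma-delta and innate-like genes had a median of −0.35 and none passed.

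Splicing factors are the proteins closest to the known role of ZMAT3. Hnrnph3, an RNA-binding protein of the hnRNP family, was at 81, 72.3, 73.8 and 76.3 CPM in wt and at 52.5, 56.2, 47.9 and 48.7 CPM in Zmat3-/- mice (log2FC −0.56, SE 0.0879, adjusted p = 0.0309, 0.18 with the block). It was 1 of 27 tested hnRNPs and RNA helicases (3.7%, while 0.363% of all tested genes passed as lower). The other 26, the 14 SR proteins and the 34 spliceosome genes and splicing kinases did not pass. In 4 of the 14 SR proteins (28.6%) and 4 of the 34 (11.8%) each Zmat3-/- mouse was below each wt mouse, as in 6.81% of all tested genes. In 0 of either list was each above. Among the 27 hnRNPs and helicases this held for 3 in each direction. Log2FCs were below 0 in 10 of the 14 and 23 of the 34, as in 53.2% of all tested genes. The splicing targets the study names, Mdm2, Mdm4, Hnrnpdl, Dhx9 and Cd44, had log2FCs of 0.0026, 0.12, 0.042, 0.32 and 0.038 and none passed; by pair Mdm4 was at 0.70 and −0.26 and Dhx9 at 0.50 and 0.15. Counts per gene do not show which exons were used. Neat1, the scaffold RNA of paraspeckles, was at 213, 247, 515 and 522 CPM in wt and at 117, 136, 129 and 140 CPM in Zmat3-/- mice, lower in each (log2FC −1.52, by pair −0.87 and −1.96, SE 0.305), but did not pass (adjusted p = 0.0685).

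Non-coding RNA genes made up a larger part of the falls than of the rises. Of 1186 tested antisense, lincRNA, other lncRNA and TEC genes (TEC marks gene models that still await experimental proof), 22 passed as lower (1.85%) and 7 as higher (0.590%), against 0.193% and 0.386% of protein-coding genes. Over the whole class 64.8% of the log2FCs were below 0, against 52.3% of those of coding genes. The median of −0.20 was 0.12 in mice 1 and 2 and −0.39 in mice 3 and 4, so that the sign of the class as a whole depended on the mice. Of the 29 that passed, 13 overlapped exons of a protein-coding gene on the other strand, and the library kit does not mark strand, so that reads of such partners cannot be told apart. None of the 16 overlapped coding genes that were tested passed, and their log2FCs ran from −0.56 to 0.54.

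The lower non-coding RNAs included transcripts with levels at or near 0 in Zmat3-/- mice. Gm38226 (TEC, chromosome 9) was at 2.5, 1.71, 1.51 and 1.49 CPM in wt and at 0, 0, 0 and 0.168 CPM in Zmat3-/- mice (log2FC −5.61, adjusted p = 0.0299, 0.178 with the block). Counts in Zmat3-/- mice came from mouse 4 alone, so that this log2FC depends on the prior count of the fit, and it ran from −8.87 to −5.08 when single mice were left out. Gm44777, antisense to exons of Pik3c2a on chromosome 7, was at 12.1, 8.23, 12.8 and 9.8 CPM in wt and at 1.93, 2.53, 1.8 and 1.51 CPM in Zmat3-/- mice (log2FC −2.46, SE 0.223, adjusted p = 0.00273, 0.0567 with the block). D130019J16Rik (TEC, chromosome 1 from 137935189 to 137937346) fell from 8.79 to 10.1 CPM to 2.33 to 3.51 CPM (log2FC −1.69, adjusted p = 0.00691, 0.0613 with the block). Gm37632, another TEC gene nearby (137971174 to 137972315), had a log2FC of −2.36 (adjusted p = 0.0199, 0.151 with the block). Among lincRNAs AI480526 was at 21, 20.8, 41.5 and 43.9 CPM in wt and 7.99 to 9.15 CPM in Zmat3-/- mice (log2FC −1.92, by pair −1.37 and −2.30, adjusted p = 0.0248, 0.0906 with the block). Mir142hg, the host transcript of the blood cell microRNA miR-142, fell to 3.77 to 5.91 CPM from 14.8, 11.4, 25.5 and 24.5 CPM (log2FC −1.94, by pair −1.22 and −2.56, adjusted p = 0.0267, 0.179 with the block). Both wt ranges fell apart by mouse number. Gm37510, Gm44037, Gm37584, Gm27003, Gm37829 and the transcribed pseudogene D630033A02Rik had log2FCs from −2.80 to −1.84 and lost the call with the block, at adjusted p of 0.151 to 0.191; by pair Gm44037 was at −1.58 and −3.43, Gm37584 at −1.47 and −2.99 and Gm37829 at −1.15 and −2.40. ENSMUSG00000118642.1, which has no name in the annotation used, fell from 83.6 to 120 CPM to 22.5 to 37.3 CPM (log2FC −1.87, by pair −1.55 and −2.25, adjusted p = 0.00535, 0.0631 with the block).

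Rises among little-studied genes were fewer but large. Gm48369, a TEC gene inside an intron of Bzw2 on chromosome 12 and on the same strand, was at 0.151, 0.0488, 0.126 and 0.118 CPM in wt and at 2.89, 4.29, 3.14 and 3.98 CPM in Zmat3-/- mice. The log2FC of 5.00 (SE 0.354, adjusted p = 0.000752, 0.0413 with the block) was the highest of the genes that passed, while Bzw2 had a log2FC of −0.10 (−0.38 and 0.27 by pair, adjusted p = 0.824). Gm21887, a protein-coding gene model on chromosome X, was at 3.86, 5.45, 8.29 and 2.52 CPM in wt and at 65.9, 56.8, 43.7 and 60.9 CPM in Zmat3-/- mice (log2FC 3.50, SE 0.348, adjusted p = 0.00505, 0.0613 with the block). Lncppara, Gm43684 and Gm26885, the last antisense to Pim1, had log2FCs of 3.39, 3.28 and 2.50 and adjusted p of 0.0752 to 0.0984 with the block. The histone gene Hist1h2bg, whose near-identical copies could share its reads, rose from 0.629 to 1.49 CPM to 5.74 to 13.2 CPM (log2FC 2.86, adjusted p = 0.0176, 0.0494 with the block). It alone passed of 25 tested replication-dependent histone genes (4%, while 0.400% of all tested genes passed as higher). Of the 25, 19 had a log2FC below 0, with a median of −0.20 (−0.38 in mice 1 and 2 and 0.35 in mice 3 and 4).

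**Figure D5:**
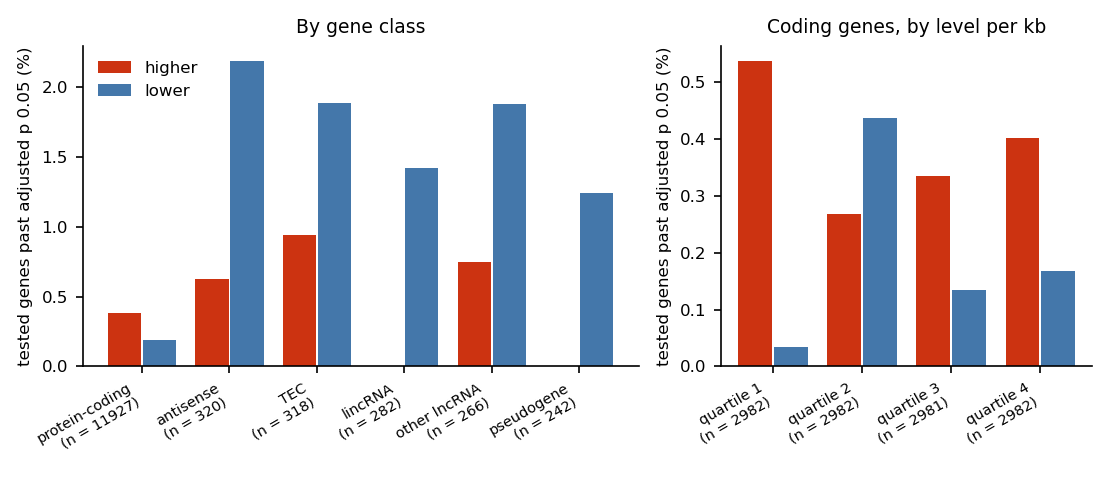
Share of tested genes (%) that passed as higher or as lower in Zmat3-/- thymocytes, by annotated gene class (left) and, for protein-coding genes, by quartile of the mean level per kb of exon from lowest to highest (right). Lower genes outnumber higher ones in each non-coding class and the pseudogenes, and higher genes outnumber lower ones in quartiles 1, 3 and 4.

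By level, coding genes passed at like rates from the least to the most abundant quartile (0.570%, 0.704%, 0.470% and 0.570% of CPM per kb of exon), but with other directions. In the lowest quartile 16 genes rose and 1 fell, in the second 8 rose and 13 fell, and in the highest 12 rose and 5 fell. The 46 coding genes that rose were compact, with a median span of 9546 bases and 5 exon blocks, against 23728 bases and 10 blocks over all tested coding genes; the 23 that fell had medians of 6735 bases and 4 blocks. Among genes with a mean of at least 50 CPM that passed, those with the highest log2FC were Sik1, Dusp1, mt-Nd4l, Tnfaip3, Tob2, Zfp36l2, Nr4a1 and Klf6. The genes of that abundance that fell, beside ENSMUSG00000118642.1 and Cxcr4, were AI467606, Lpar6, BC037034, Hnrnph3, Ms4a4b and Cybc1, with log2FCs from −0.61 to −0.48 and adjusted p of 0.174 to 0.192 with the block.

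Transcripts of the mitochondrial genome took more of the counts in Zmat3-/- mice. Their share was 5.38%, 6.31%, 4.45% and 4.25% in wt mice 1 to 4 and 10.4%, 6.54%, 14.6% and 12% in Zmat3-/- mice 1 to 4. The ranges did not overlap, although Zmat3-/- mouse 2 stood close to wt mouse 2. In TKO mice 1 to 3, which also lack Zmat3, the share was 8.44%, 9.29% and 3.86%, the last below each wt mouse. Of 13 tested mitochondrially encoded genes 12 had a log2FC above 0 (92.3%, as 46.8% of all tested genes had), with a median of 1.28 (0.37 in mice 1 and 2 and 1.88 in mice 3 and 4), and 1 passed (7.69%, while 0.400% of all tested genes passed as higher). This was mt-Nd4l, a subunit of respiratory complex I, at 97.7, 155, 182 and 162 CPM in wt and at 664, 365, 973 and 875 CPM in Zmat3-/- mice (log2FC 2.27, adjusted p = 0.0248, 0.0906 with the block). In TKO mice 1 to 3 mt-Nd4l was at 508, 594 and 175 CPM, the last within the wt range. Nuclear pseudogenes of mitochondrial genes held a further 1.18% to 3.66% of counts in wt and 2.55% to 5.05% in Zmat3-/- mice, and share reads with them. The nuclear-encoded respiratory chain genes had a median log2FC of −0.31 over 88 genes and the cytosolic ribosomal protein genes one of −0.29 over 82, with none that passed; in mice 1 and 2 the medians were −0.70 and −0.77 and in mice 3 and 4 they were 0.27 and 0.51. The mitochondrial share differs between whole libraries, and whether it plays a part in the other differences was not tested.

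Sparcl1, a matrix protein of vessels and stroma, was at 1.26 to 1.93 CPM in wt and at 4.45 to 6.95 CPM in Zmat3-/- mice (log2FC 1.82, adjusted p = 0.0148, 0.0613 with the block). The macrophage receptors Siglec1 (log2FC 1.68, adjusted p = 0.0191) and Mrc1 (log2FC 0.85, adjusted p = 0.0454) and the smooth muscle myosin Myh11 (log2FC 1.54, adjusted p = 0.0481) also rose, and lost the call with the block (adjusted p of 0.151 to 0.192). These 4 genes were chosen after their values were seen. Of 17 fibroblast and endothelial markers 13 were tested and none passed, but 10 had a log2FC above 0, with a median of 0.78. Col3a1 and Sparc had log2FCs of 1.30 and 1.15 (adjusted p = 0.103 for both). In TKO mouse 3 Sparcl1 (0.624 CPM), Mrc1 (7.2 CPM), Col3a1 (1.09 CPM) and Sparc (1.21 CPM) were below each wt mouse. In TKO mice 1 and 2 they were above each wt mouse, as Siglec1 and Myh11 were in all 3 TKO mice. The 17 markers summed to 149 to 168 CPM in wt and 166 to 188 CPM in Zmat3-/- mice, and Emcn, Pdgfra and Tek stayed under 1 CPM in the 8 mice. None of the 15 macrophage, 15 thymic epithelial, 14 B cell, 9 dendritic cell, 5 tested neutrophil and 5 tested erythroid markers passed; the macrophage markers summed to 334 to 588 CPM in wt and 455 to 605 CPM in Zmat3-/- mice. Of these, 7 of 15 macrophage, 9 of 15 thymic epithelial and 5 of 5 neutrophil markers had a log2FC below 0, with medians of 0.10, −0.12 and −0.42. In unsorted cells a change in the number of such cells and in their RNA per cell cannot be told apart.

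None of 25 interferon-stimulated genes passed, 21 had a log2FC below 0, and the median of −0.23 was −0.42 in mice 1 and 2 and 0.11 in mice 3 and 4. Outside that list, Oas1b, of the 2'-5' oligoadenylate synthetase family and annotated as a polymorphic pseudogene, was at 15.3 to 16.4 CPM in wt and at 7.37, 8.22, 5.41 and 6.45 CPM in Zmat3-/- mice (log2FC −1.22, SE 0.146, adjusted p = 0.0134, 0.0984 with the block). Irgm2, an interferon-induced GTPase, fell from 30.2 to 35.6 CPM to 19.2 to 22 CPM (log2FC −0.67, adjusted p = 0.0248, 0.174 with the block). Both were chosen after their values were seen.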

How the data were processed

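Libraries were made with the TruSeq RNA kit (v2), which does not mark strand, from 100 ng of RNA per mouse. The authors demultiplexed reads with bcl2fastq and deposited estimated counts per gene from Salmon (nf-core/rnaseq), on GRCm38.p6 with GENCODE vM25. The deposited values were whole numbers and were used as counts. Of 54418 genes 54166 matched GENCODE M21, which gave names, classes and positions.

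Genes with at least 20 counts, scaled to the smallest of the 8 libraries, in at least 4 mice were kept; Xist, chromosome Y genes, rRNA genes and immunoglobulin pseudogenes were left out. Zmat3-/- and wt mice were compared with edgeR 4.0.16 (quasi-likelihood F-test, Benjamini-Hochberg adjustment) in R 4.3.3. CPM used TMM factors over the 11 mice. The SE is the log2FC divided by the root of F. The authors used DESeq2 (1.40.0 per the labels) with sex and surrogate variables; the labels give no sex. DESeq2 1.42.0, sva 3.50.0, other filters and scalings, and fits without single mice were alternatives. Alternatives without wt mice 1 and 2, or on mice 1 and 2 or 3 and 4 alone, were chosen after seeing the data.

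The labels number the mice without saying what a shared number means. Deviations from the group means of same-numbered mice correlated at 0.342, 0.127, 0.26 and 0.302, so the replicate number was also fitted as a block. Differently numbered mice within mice 1 and 2 or within mice 3 and 4 correlated alike, at 0.162 to 0.38, so the numbers cannot be told apart from these pairs. The numbered mice are the replicates, and p-values measure the spread between them. On simulated counts for this comparison (13494 genes) 59% of genes changed by 1 on the log2 scale and 100% of those changed by 3 were recovered, and 5 unchanged genes were called. The simulated mice of a genotype shared a mean for each gene, without the split between wt mice 1 and 2 and wt mice 3 and 4. These rates therefore need not hold for the data.

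The members and gene lists were chosen with earlier results of these data known. Genes named were Zmat3, its family and the splicing targets the study names; in each list the up to 4 members (6 in early-response lists) that passed with the smallest adjusted p; the 12 highest and 12 lowest log2FCs that passed; and the 8 highest and 8 lowest at a mean of at least 50 CPM. The other named genes were chosen after their values were seen. A gene and a sequence withheld from this text are not reported here.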

Additional observations from a re-analysis of the deposited data

Results flagged for a closer look

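Each value here is either a single mouse that stands apart from its group or a difference between the log2FC in mice 3 and 4 and the log2FC in mice 1 and 2, with an adjusted p from edgeR's interaction term. These pairs of numbers were set from the data (Xist level and the correlations between wt mice) and are not groups of the study; what separates them was not tested.

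The heat shock genes Hspa1a and Hspa1b, near-identical copies that can share reads, reached 172 and 414 CPM in Zmat3-/- mouse 4, far above the other Zmat3-/- mice; chance alone sets off this rule in about 1 of 20 groups. Their log2FCs were also larger in mice 3 and 4, by 6.03 for Hspa1a (adjusted p = 0.00482) and 5.14 for Hspa1b (adjusted p = 0.00643).

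Zmat3 itself was lower by a further 1.04 in mice 3 and 4 (difference −1.04, adjusted p = 0.00278). Among its family and the named splicing targets the difference was 0.97 for Zmat2, 1.46 for Zmat5 and −0.95 for Mdm4 (adjusted p = 0.00129, 0.00285 and 0.00081), with opposite signs in the pairs of mice.

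Among early-response and stress genes that did not pass, the log2FC was larger in mice 3 and 4 for Fos (by 3.57), Junb (2.58), Jun (2.37), Ppp1r15a (2.27) and Rgs2 (1.37). Among those that passed it was larger for Plk2 (1.65), Dusp1 (1.05), Spry1 (0.93), Arc (0.81) and Zfp36l2 (0.42). It was smaller for Klf6 (difference −0.51). The adjusted p of these 11 differences ran from 4.12e-05 for Junb to 0.0226 for Spry1. All 11 genes had a log2FC above 0 in both pairs of mice. Gpr3 had a fitted difference of 5.43 (adjusted p = 0.0142), but it was at 0 in wt mice 3 and 4, so that this value depends on the prior count of the fit and is no measured size.

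The falls of non-coding genes were larger in mice 3 and 4 for Gm44037 (difference −1.84), Gm37584 (−1.51), Mir142hg (−1.33), Gm37829 (−1.24) and AI480526 (−0.93), and for ENSMUSG00000118642.1, which has no class in the annotation used (−0.69). Their adjusted p ran from 0.00124 to 0.0287.

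In 4 genes that did not pass, the sign turned between the pairs of mice: the replication gene Pola1 (difference −0.88), the mitosis gene Hmmr (−0.79), the dendritic cell marker Clec9a (−1.31) and the ribosomal protein gene Rplp2 (1.31), with adjusted p of 0.000627 to 0.0333.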

How the results depend on the processing

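The direction of the 103 genes that passed was the same under all 19 alternatives, but the number that passed was not. Their CPM ranges did not overlap between the genotypes, so fits on fewer of these mice were bound to give the same direction. The other alternatives refitted the same counts, so the shared direction is no independent support. Against 103 genes, 43 with the fold limit and 17 early-response members, DESeq2 gave 1085 (517 higher and 568 lower), 123 and 36 (31 higher and 5 lower), the replicate block 12, 8 and 8, and 1 surrogate variable 5102 (2959 higher and 2143 lower), 215 and 74 (66 higher and 8 lower). With all 3 genotypes in one fit 235 and 72 passed, with the Xist level as a covariate 202 (97 higher and 105 lower), and with no filter on low counts 55 (36 higher and 19 lower). Zmat3 passed with DESeq2 (−1.64, adjusted p = 0.000376), the Xist covariate (−1.50, 0.0415), the surrogate variable (−1.63, 7.4e-07) and 3 genotypes (−1.64, 0.0299), but not with the block (−1.50, 0.178), RLE size factors (0.0794), no filter (0.079) or filterByExpr (0.0843), nor in 7 of the 8 fits without a single mouse (0.0815 to 0.265). Among alternatives chosen after seeing the data, leaving out wt mice 1 and 2 gave 4501, 314 and 69 with Zmat3 at −2.16, mice 1 and 2 alone gave 5975, 516 and 62 with Zmat3 at −0.98, and mice 3 and 4 alone gave 3746, 279 and 61 with Zmat3 at −2.04. The cause of these moves was not tested.

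Leaving out single mice gave 17 to 105 genes, 12 to 47 with the fold limit and 9 to 17 early-response members, with Zmat3 between −1.86 and −1.42. The count of genes was 45, 34 and 30 without wt mouse 2, 3 or 4 and 17, 20, 22 and 18 without Zmat3-/- mouse 1, 2, 3 or 4; early-response members were 11 without wt mouse 4, 9 without Zmat3-/- mouse 1, 2 or 4 and 11 without mouse 3. In all 8 of these fits 17 genes passed, 14 higher and 3 lower.

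Among the named genes, signs turned in 13 that did not pass. Mdm2 was at −0.0017 with no filter, −0.0039 with filterByExpr, −0.013 with the surrogate variable, −0.076 without wt mice 1 and 2 and −0.013 in mice 3 and 4. Hba-a1 and Hba-a2 were at 0.027 and 0.028 with the block and 0.35 and 0.39 in mice 1 and 2, where Hnrnpdl was at −0.021. Without wt mice 1 and 2 the values were Zmat2 0.36, Zmat5 0.30, Mdm4 −0.36, Hmmr −0.032, Cd79a 0.089, Clec9a −0.024 and Rplp2 0.30. In mice 3 and 4 they were Zmat2 0.32, Zmat5 0.30, Mdm4 −0.26, Pola1 −0.01, Hmmr −0.13, Clec9a −0.31 and Rplp2 0.16. Leaving out single mice moved Mdm2 between −0.032 and 0.042, Mdm4 between −0.086 and 0.32, Cd44 between −0.059 and 0.13, Hba-a1 between −0.88 and 0.81, Hba-a2 between −0.96 and 0.85 and Zmat2 between −0.43 and 0.0066.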
